A study of Mus musculus with 6 samples.

Results

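The genes described here encode blood group antigens and channels of the red cell surface: Rhag, Rhd, Kel, Xk, Ermap, Icam4, Gypc, Aqp1, Slc14a1 and Tspo2. They were chosen by name, and every probe set (several short array sequences against a transcript, summarised as 1 value) that carries 1 of these symbols alone was taken. All 10 genes of the 18193 on the array under their own symbol were found, with 12 of the 34945 probe sets that carry a single symbol, since Xk and Slc14a1 have 2 each and the other 8 genes 1 each. Rhd, Kel, Icam4 and Gypc were higher in the more mature of the sorted subsets, by 1.92-fold to 4.32-fold. Rhag, Ermap, Slc14a1, Xk, Tspo2 and Aqp1 did not pass the test over the 6 arrays. Once arrays of differing transcript coverage were set apart, Xk and Tspo2 passed as higher and Aqp1 as lower. That fit called 4.16% of all probe sets higher and 28.2% lower. For Aqp1 every array of the more mature subset lay below every array of the less mature one, as it did for 22.9% of all probe sets tested.

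Red cell precursors build their final surface while they still divide in the fetal liver. Many of the proteins added there carry blood group antigens in humans, and they sit in complexes that are tied to the spectrin skeleton through band 3, ankyrin and protein 4.1. The Rh proteins, the Kell protein with its partner XK, the glycophorins, an LW adhesion molecule and the water and urea channels are the best known of them.

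Messenger RNA was measured on 6 whole-genome oligonucleotide arrays, 1 per sorted sample, in cells of Balb/C mouse embryos. The cells were stained for the transferrin receptor CD71, for the red cell antigen Ter119 and for markers of other lineages, and the subsets were isolated on a cell sorter. S1 (3 arrays) is the less mature subset and S3 (3 arrays) the more mature one, and the 3 samples of each came from sorts on separate days. No treatment or genotype separates the groups. For the S1 samples the stage label gives embryonic day 12.5 and the source label 13.5, while both give 13.5 for S3, so that embryo age and subset cannot be told apart. All values are log2 signals as the authors scaled them, and with 3 arrays a subset the precision is limited. The arrays read pooled sorted cells, so fewer cells of a type and less RNA per cell cannot be told apart either.

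The arrays fell into 2 classes by how well the 5' end of a transcript was read. For beta-actin, whose ends have separate control probe sets, the 5' end minus the 3' end was -2.08 to -2.59 in log2 signal on S1 replicates 1 and 2 and S3 replicate 2 (short arrays). The same difference was -0.45 to -0.56 on S1 replicate 3 and S3 replicates 1 and 3 (long arrays). The mean of the long arrays lay above the mean of the short arrays for all 12 probe sets within S1 and for 11 of 12 within S3, where Icam4 was the exception; over the 27022 probe sets tested these shares were 83.5% and 73%. The median long-minus-short difference was 0.93 in S1 and 0.72 in S3 for the 12 probe sets, against 0.68 and 0.53 for all tested. S3 holds 2 long arrays and S1 holds 1, so the change of each of the 10 genes is also given with the class as a block, and within each class. All 8 erythroid markers read above background on every array. In the fit described next, 4 of the 8 were called higher in S3, and Gata1, Klf1, Epor and Tfrc were not called. Of 4 progenitor markers, 2 read above background on every array and 3 passed the filter on low signal. These 3 were called lower in S3. Of all genes, each by its brightest probe set, 2.02% were called higher and 9.62% lower.

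All 12 probe sets were above background on every array and above the filter on low signal. In a limma fit over 27022 probe sets with Benjamini-Hochberg adjustment, 4 of the 12 passed an adjusted p of 0.05 as higher in S3 and 0 as lower. Of all probe sets tested 1.61% were called higher and 6.66% lower. At an unadjusted p under 0.05, 7 were higher and 0 lower, where 4.61% and 17.6% of all were. Every S3 array lay above every S1 array for 5 of the 12, against 5.39% of all probe sets, and below for 1 of the 12, against 22.9%. The median log2 change was 0.99 for the 12 probe sets and -0.24 for all tested. With the class block, 7 of the 12 were called higher, where 4.16% of all probe sets were, and 1 was called lower, where 28.2% were. The median change was then 0.99 for the 12 and -0.46 for all tested. Centring each array on its median moved the median change of all probe sets to -0.01, and 5 of the 12 were then called higher and 0 lower, where 2.77% and 4.23% of all were. The subsets of centred values did not overlap for 8 of the 12 with S3 above, against 10.7% of all probe sets, and for 1 with S3 below, against 15.1%. With the block and centring together 7 were higher and 0 lower, where 5.98% and 9.77% of all were. The direction of S3 against S1 was the same within the short and within the long arrays for all 12 probe sets, higher for 9 and lower for 3. Over all probe sets 17% were higher in both classes and 60.6% lower in both.

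**Figure D1:**
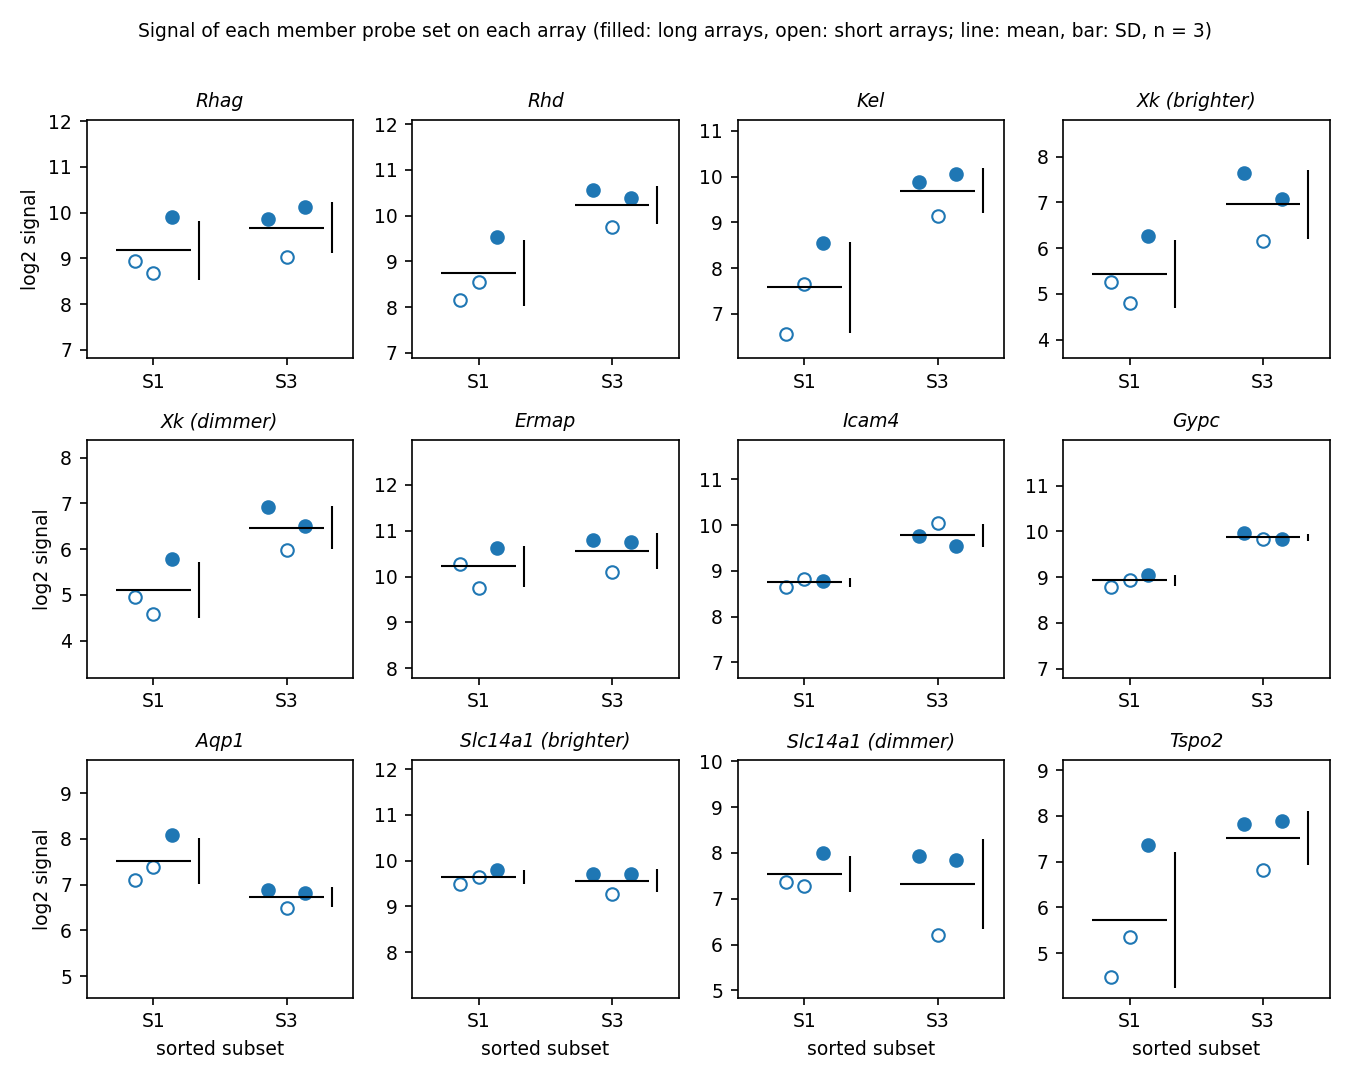
Log2 signal (vertical axis, the same span in each panel) of the 12 probe sets on each of the 6 arrays, by sorted subset. Filled points are long arrays, open points short arrays, lines the mean and side bars the SD of 3 arrays; Icam4 and Gypc separate S1 from S3 with little spread, while Kel, Rhd, Xk and Tspo2 also differ between open and filled points within a subset.

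The upstream sequences of Rhag, Rhd, Kel and Icam4 are shown because 3 of these genes were called higher and Rhag, the partner of Rhd, was not. Each line gives the 250 bases before the RefSeq transcript start (GRCm38.p6), 5' to 3' on the gene's strand, with capitals for the GATA motif, bound by GATA1, and for the CACC box, bound by KLF1 and related factors.
Rhag: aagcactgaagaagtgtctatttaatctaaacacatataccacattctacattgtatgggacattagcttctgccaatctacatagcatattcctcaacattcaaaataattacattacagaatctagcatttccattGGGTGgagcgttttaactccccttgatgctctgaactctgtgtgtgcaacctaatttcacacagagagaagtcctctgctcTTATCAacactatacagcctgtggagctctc
Rhd: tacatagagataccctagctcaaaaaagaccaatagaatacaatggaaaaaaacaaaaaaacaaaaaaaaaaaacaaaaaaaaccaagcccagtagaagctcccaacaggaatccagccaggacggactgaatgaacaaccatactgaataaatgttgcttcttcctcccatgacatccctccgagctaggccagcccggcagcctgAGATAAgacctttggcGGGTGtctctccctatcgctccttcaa
Kel: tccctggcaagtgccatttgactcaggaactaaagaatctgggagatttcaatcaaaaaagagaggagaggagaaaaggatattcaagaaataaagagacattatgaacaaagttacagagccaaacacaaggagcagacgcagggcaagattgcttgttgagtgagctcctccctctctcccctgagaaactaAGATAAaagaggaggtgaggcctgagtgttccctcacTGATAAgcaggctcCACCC
Icam4: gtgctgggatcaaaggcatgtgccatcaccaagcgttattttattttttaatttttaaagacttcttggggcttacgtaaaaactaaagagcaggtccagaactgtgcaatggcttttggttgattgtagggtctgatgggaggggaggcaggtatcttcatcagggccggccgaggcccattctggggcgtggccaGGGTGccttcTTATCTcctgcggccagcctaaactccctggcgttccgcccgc
These are chr17:40810899-40811148 (plus strand), chr4:134864286-134864535 (plus strand), chr6:41704326-41704575 (minus strand) and chr9:21029182-21029431 (plus strand). The GATA motif was searched on both strands as AGATAA, where the first letter could also be T and the last also G, and the box as CACCC. On the other strand AGATAA reads TTATCT and CACCC reads GGGTG. The 2 motifs share no base in these windows.

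Kel holds 2 GATA motifs, AGATAA from base 56 before the start and a T-led form from base 19, with CACCC in the last 5 bases. In Rhd, AGATAA begins 43 bases before the start and GGGTG 27 bases before it. In Icam4 the order is turned, with GGGTG from base 53 and TTATCT from base 43 before the start. Rhag has TTATCA from base 31 and GGGTG from base 112. Ermap, whose sequence is not printed, has TTATCA from base 67 and GGGTG from base 60 before the start. In the windows of Xk, Aqp1 and Tspo2 the search found CACCC and none of the GATA letters. Of the 8 genes searched, 5 had a GATA match and 8 a CACC match, against 26.5% and 52% of 32851 windows of the same length in the table; 5 had both, against 11.8%. A match is only a run of letters: 3 of the 5 genes with both were called higher over the 6 arrays, and Rhag and Ermap were not. The windows of Gypc and Slc14a1 were not used here.

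Rhag and Rhd encode the Rh complex of the red cell membrane. Rhag is the Rh-associated glycoprotein, a channel for ammonium and gases, and Rhd the protein that carries the Rh antigens in humans. Rhd read 8.15, 8.56 and 9.54 on S1 replicates 1, 2 and 3 and 10.55, 9.76 and 10.39 on S3 replicates 1, 2 and 3. The subsets did not overlap, and the long array was the highest of S1 and the short array the lowest of S3. Rhd was 2.79-fold higher in S3 (95% interval 1.55 to 5.03; log2 change 1.48 ± 0.37 (SE), adjusted p = 0.0487). The rise was 1.40 within the short and 0.93 within the long arrays, and 1.17 ± 0.16 with the class block (adjusted p = 0.00146). Rhag read 8.95, 8.67 and 9.90 in S1 and 9.87, 9.04 and 10.12 in S3. Its subsets overlapped: S1 replicate 3, a long array, lay above S3 replicates 1 and 2. Rhag was not called (log2 change 0.50 ± 0.38, adjusted p = 0.537), and its interval runs from 0.77-fold to 2.60-fold. With the class block this interval narrowed to 0.91-fold to 1.37-fold (log2 change 0.16 ± 0.13, adjusted p = 0.415). The Rhag change was 0.23 within the short and 0.09 within the long arrays.

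Within each array the Rhd signal can be set against the Rhag signal, and only the shift of that difference between subsets has a meaning. Rhd minus Rhag was -0.80, -0.11 and -0.36 in S1 and 0.68, 0.72 and 0.27 in S3, with no overlap. The mean shift was 0.98 (exact permutation test over 6 arrays, two-sided p = 0.1, the smallest this design allows; adjusted p = 0.15 over 3 such pairs, chosen with the values known).

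Kel and Xk encode the Kell complex, in which the Kell endopeptidase is joined by a disulfide bond to XK, a lipid scramblase of the membrane. Kel had the largest log2 change of the 12 probe sets. It read 6.55, 7.65 and 8.54 in S1 and 9.87, 9.14 and 10.06 in S3. Every S3 array lay above every S1 array, and S1 replicate 1 was the lowest of all. Kel was 4.32-fold higher in S3 (95% interval 1.96 to 9.54; log2 change 2.11 ± 0.49, adjusted p = 0.0412). It rose by 2.04 within the short and 1.43 within the long arrays, and by 1.73 ± 0.29 with the class block (adjusted p = 0.0034). Of all tested probe sets 98.2% had a smaller change than Kel, or 97.9% with the block.

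The brighter Xk probe set read 5.26, 4.81 and 6.26 in S1 and 7.65, 6.15 and 7.07 in S3. Only the highest S1 and the lowest S3 array overlapped, a long and a short array. The dimmer one read 4.95, 4.58 and 5.78 in S1 and 6.91, 5.99 and 6.51 in S3, with no overlap. The log2 changes were 1.52 ± 0.56 and 1.37 ± 0.48, and neither passed the test over the 6 arrays (adjusted p = 0.157 and 0.141). Both passed with the class block, at 1.11 ± 0.26 (adjusted p = 0.0143) and 1.08 ± 0.26 (adjusted p = 0.0161), and with each array centred on its median (adjusted p = 0.0376 and 0.0391). Within the short and the long arrays the changes were 1.12 and 1.10 for the brighter and 1.22 and 0.93 for the dimmer probe set. Kel minus Xk within arrays was 1.29, 2.85 and 2.28 in S1 and 2.22, 2.99 and 2.99 in S3. These values overlapped, and the shift of 0.60 gave an exact permutation p = 0.3 (adjusted p = 0.3 over 3 pairs).

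Icam4 and Gypc separated the subsets with little spread, an SD of 0.08 to 0.25 within a subset. Icam4 encodes the LW antigen, an adhesion molecule that binds integrins on macrophages and other cells. It read 8.64, 8.83 and 8.77 in S1 and 9.76, 10.04 and 9.53 in S3, where the short array was the highest. Icam4 was 2.04-fold higher in S3 (95% interval 1.53 to 2.72; log2 change 1.03 ± 0.18, adjusted p = 0.0160). Gypc encodes glycophorin C, which carries the Gerbich antigens and binds protein 4.1 and p55 of the skeleton. It read 8.79, 8.94 and 9.05 in S1 and 9.97, 9.82 and 9.83 in S3. Gypc was 1.92-fold higher (95% interval 1.52 to 2.44; log2 change 0.94 ± 0.15, adjusted p = 0.0115). The long arrays minus the short ones gave 0.18 in S1 and 0.07 in S3 for Gypc. For Icam4 this difference was 0.04 in S1 and -0.39 in S3, the only negative value among the 12 probe sets. Icam4 rose by 1.30 within the short and 0.87 within the long arrays, and Gypc by 0.96 and 0.85. With the class block the changes were 1.09 ± 0.14 (adjusted p = 0.00118) and 0.90 ± 0.11 (adjusted p = 8.63e-04). With each array centred on its median both missed the threshold (log2 change 1.26, adjusted p = 0.0720 for Icam4; 1.18, adjusted p = 0.0519 for Gypc), while Rhd, Kel, both Xk probe sets and Tspo2 passed.

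Ermap encodes an erythroblast membrane protein of the butyrophilin type that carries the Scianna antigens. It read 10.28, 9.75 and 10.63 in S1 and 10.80, 10.09 and 10.76 in S3. The subsets overlapped, and within each the short arrays were the lower ones. The log2 change was 0.33 ± 0.26 (adjusted p = 0.560), with an interval from 0.83-fold to 1.91-fold, or from 0.86-fold to 1.35-fold with the class block. The Ermap rise within the short arrays was 0.08 and within the long arrays 0.15.

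**Figure D2:**
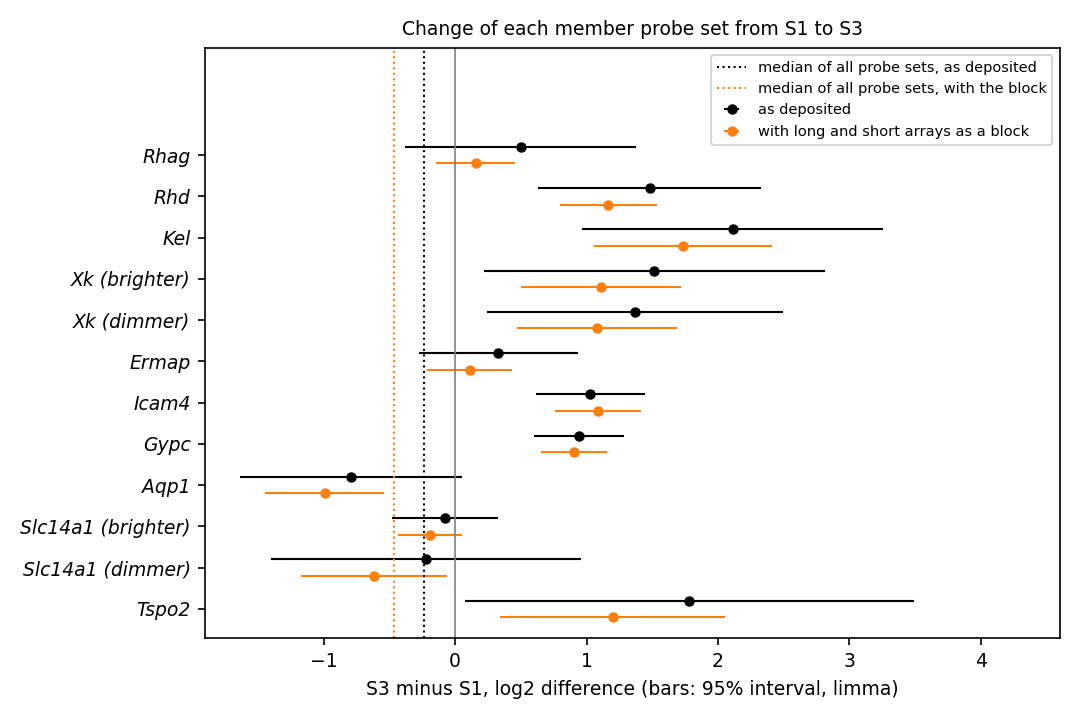
Log2 difference S3 minus S1 (horizontal axis) of the 12 probe sets, with 95% intervals from limma, as deposited (black) and with the array class as a block (orange); dotted lines mark the median of all tested probe sets at -0.24 and -0.46. The block narrows the intervals of all 12 probe sets. Those of Rhd, Kel, Xk, Icam4, Gypc and Tspo2 stay above 0. Those of Rhag, Ermap and the brighter Slc14a1 probe set still cover 0. Those of Aqp1 and the dimmer Slc14a1 probe set cover 0 as deposited and lie below 0 with the block.

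Among the channels and transporters, the water channel Aqp1 and the urea transporter Slc14a1 did not rise. Aqp1, which carries the Colton antigens in humans, read 7.11, 7.38 and 8.08 in S1 and 6.89, 6.49 and 6.82 in S3. Every S3 array lay below every S1 array, and the long array of S1 was the highest. The log2 change was -0.79 ± 0.36 (adjusted p = 0.259), that is 0.58 of the S1 signal with an interval from 0.32 to 1.04. With the class block it was -0.99 ± 0.19 (adjusted p = 0.00646), in a fit that called 28.2% of all probe sets lower. It was -0.75 within the short and -1.23 within the long arrays. With the block and median centring it was -0.54 ± 0.30 (adjusted p = 0.247). Relative to the median of all probe sets Aqp1 lay at -0.55, or -0.53 with the block, and 25.8% and 26.9% of probe sets had a smaller value. Endothelial cells, which also make Aqp1, have 4 marker genes measured here, of which 0 read above background on every array and 1 (Tek) on no array; their summed log2 signal was 1.39 to 2.64 in S1 and 0.61 to 2.34 in S3, from the 1 marker that passed the filter, Cdh5.

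Slc14a1, which carries the Kidd antigens in humans, was not called in either probe set. The brighter one read 9.50, 9.64 and 9.79 in S1 and 9.72, 9.27 and 9.71 in S3. The subsets overlapped, and the log2 change was -0.08 ± 0.17 (adjusted p = 0.871). For this probe set, as deposited, the interval of 0.72-fold to 1.25-fold excludes a 2-fold change in either direction. The dimmer probe set read 7.37, 7.27 and 8.00 in S1 and 7.93, 6.20 and 7.84 in S3, with the lowest value on the short S3 array. Its change was no clearer (log2 change -0.22 ± 0.51, adjusted p = 0.876), and its interval is wider, from 0.38-fold to 1.95-fold. Under the class block the brighter probe set changed by -0.19 ± 0.11 (adjusted p = 0.222). The dimmer one changed by -0.62 ± 0.24 (adjusted p = 0.0870), with an interval from 0.44-fold to 0.96-fold. Within the short and the long arrays the changes were -0.30 and -0.08 for the brighter and -1.12 and -0.11 for the dimmer one. The sign of both depended on the scaling: centring on array medians gave 0.15 and 0.01 (adjusted p = 0.828 and 0.992). Aqp1 minus the brighter Slc14a1 probe set was -2.39, -2.26 and -1.71 in S1 and -2.83, -2.78 and -2.89 in S3. This difference shifted by -0.71 with no overlap (exact permutation p = 0.1, the smallest possible; adjusted p = 0.15 over 3 pairs).

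Tspo2, a red cell relative of the translocator protein Tspo, takes part in cholesterol handling in erythroblasts. It read 4.48, 5.35 and 7.38 in S1 and 7.83, 6.83 and 7.89 in S3. The long S1 array lay above the short S3 array, so the subsets overlapped. Of the 12 probe sets it differed most between array classes in S1, by 2.46, and by 1.04 in S3. The log2 change was 1.78 ± 0.74 and did not pass (adjusted p = 0.205). It was 1.91 within the short and 0.49 within the long arrays, and 1.20 ± 0.37 with the class block (adjusted p = 0.0402). Without S1 replicate 3 the Tspo2 change was 2.60 (adjusted p = 0.0364), in a fit that leaves S1 with short arrays only. Array class and subset are harder to tell apart there than with every array kept, so nothing on the subsets is drawn from that pass.

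In some fits that left out an array, fewer probe sets were called and calls among the 4 here were lost. All 4 stayed without S1 replicate 3 or S3 replicate 2, where 488 and 417 of all probe sets were called higher. The former fit leaves S1 with short arrays only, and the latter leaves S3 with long arrays only. In both, array class and subset are harder to tell apart than over the 6 arrays. Without S1 replicate 1, S1 replicate 2, S3 replicate 1 or S3 replicate 3, between 95 and 137 probe sets in all were called higher, against 436 with every array. Rhd and Kel lost the call without S1 replicate 1, S1 replicate 2, S3 replicate 1 or S3 replicate 3 (adjusted p = 0.137, 0.158, 0.154 and 0.162 for Rhd; 0.0908, 0.125, 0.128 and 0.149 for Kel). Gypc lost it without the same 4 arrays (adjusted p = 0.0550, 0.0558, 0.0585 and 0.0599), and Icam4 without S1 replicate 1, S1 replicate 2 or S3 replicate 1 (adjusted p = 0.0711, 0.0635 and 0.0659). Over all 6 fits that left out 1 array, the log2 change lay between 1.18 and 1.88 for Rhd, 1.60 and 2.59 for Kel, 0.88 and 1.00 for Gypc and 0.90 and 1.15 for Icam4. Rhd, with an adjusted p next to the threshold, also missed it with no filter (0.0593) and with a robust trend (0.0515).

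**Figure D3:**
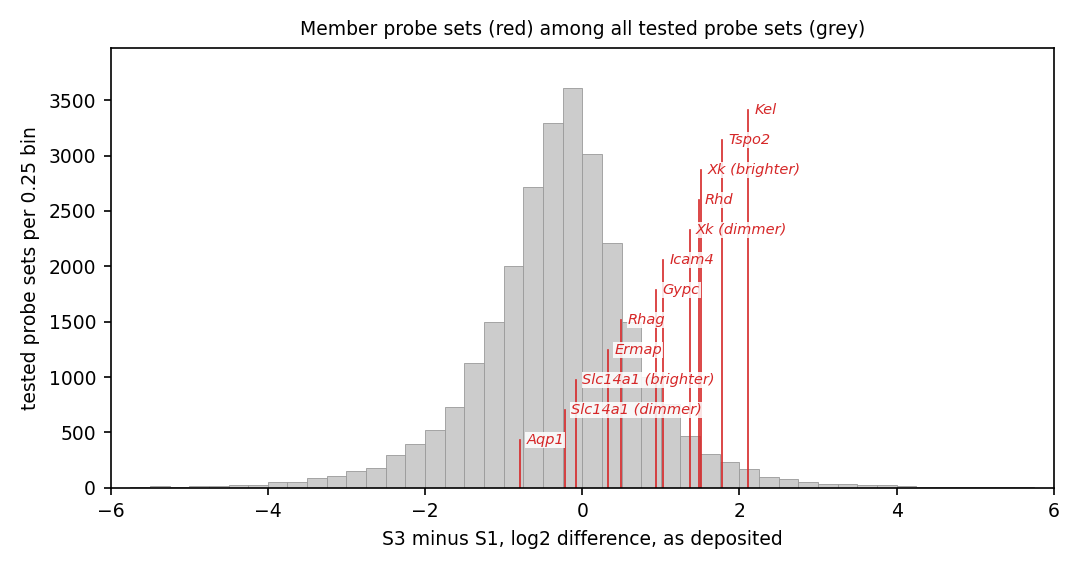
Histogram of the log2 difference S3 minus S1 (horizontal axis) over the 27022 tested probe sets, in bins of 0.25 from -6 to 6, with the 12 probe sets described here as red lines of arbitrary height. Kel, Tspo2, Xk and Rhd lie in the right tail, and Slc14a1 and Aqp1 lie within the bulk.

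The genes of the proteins that hold these antigens at the skeleton rose for the most part. Of 10 genes listed for the membrane complexes, 7 were measured, and 6 of them rose and 0 fell, where 2.02% of 11959 genes, each by its brightest probe set, rose and 9.62% fell. The median log2 change of the 7 was 2.45, against -0.33 for all genes. Band 3 (Slc4a1), the anion exchanger to which the Rh complex is bound, rose from 8.84 ± 0.60 to 11.29 ± 0.07 (mean log2 signal ± SD, n = 3; adjusted p = 0.00499). Epb42, the protein 4.2 gene, rose from 4.49 ± 1.42 to 8.34 ± 0.89 (adjusted p = 0.0256), and Mpp1, which encodes the p55 partner of glycophorin C, from 6.51 ± 0.80 to 8.74 ± 0.63 (adjusted p = 0.0347). The others that rose were Dmtn (dematin, log2 change 2.95), Sptb (beta spectrin, 3.23) and Ank1 (ankyrin, 1.17; adjusted p = 0.0713 with median centring). Cd47, an Rh complex member that signals to macrophages, was not called (0.40 ± 0.17, adjusted p = 0.210), and its 5 probe sets all changed by a positive amount. Without S1 replicate 1, S1 replicate 2, S3 replicate 1 or S3 replicate 3, 1 or 2 of the 7 passed as higher, in fits with the general loss of calls given for the 10 genes. With the class block the counts were 6 higher and 0 lower, where 4.99% and 36.3% of all genes were; Slc4a1 then rose by 2.27 and Epb42 by 3.20.

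Of 37 other blood group carriers, pumps and transporters listed, which share Slc4a1 and Cd47 with the preceding list, 32 had a probe set and 31 were tested. In S3, 6 rose, 1 fell and 24 were not called, with a median log2 change of 0.40. Of all genes, each by its brightest probe set, 2.02% rose and 9.62% fell, with a median of -0.33. Ackr1, the Duffy antigen receptor for chemokines, had the largest rise, 26.1-fold, from 3.97 ± 0.69 to 8.67 ± 0.84 (adjusted p = 0.00585). Cd59a, an inhibitor of complement lysis, rose 12.5-fold, from 4.94 ± 0.43 to 8.59 ± 0.70 (adjusted p = 0.00628). Abcg2, the transporter that carries the Jr antigen, rose 1.66-fold (adjusted p = 0.0139) and the glucose transporter Slc2a1 1.61-fold (adjusted p = 0.00587); both missed the threshold with median centring (adjusted p = 0.139 and 0.138). Ache, the acetylcholinesterase that carries the Yt antigens, rose 3.20-fold (adjusted p = 0.0409) and was named after its value was seen. Cd44, the hyaluronan receptor with the Indian antigens, was the 1 that fell, from 9.25 ± 0.06 to 6.39 ± 0.07 (log2 change -2.86 ± 0.24, adjusted p = 0.00423). Under the class block 10 rose and 5 fell, where 4.99% and 36.3% of all genes did, with 4.27 for Ackr1 and -2.84 for Cd44.

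Some listed genes had tested probe sets that disagreed in sign. Aqp3, a glycerol channel with the GIL antigen, was not called (log2 change 1.76 ± 0.74, adjusted p = 0.211), and the dimmest of its 4 probe sets changed by -1.34. The brightest Aqp3 probe set passed with the class block (1.16, adjusted p = 0.0245). Cd151, a tetraspanin with the Raph antigen, was not called (-0.04 ± 0.51, adjusted p = 0.979), and its 6 probe sets ranged from -1.28 to 1.03. The lactate transporter Slc16a1 was not called either (-0.13 ± 0.10, adjusted p = 0.536), and its dimmer probe set changed by 0.09.

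**Figure D4:**
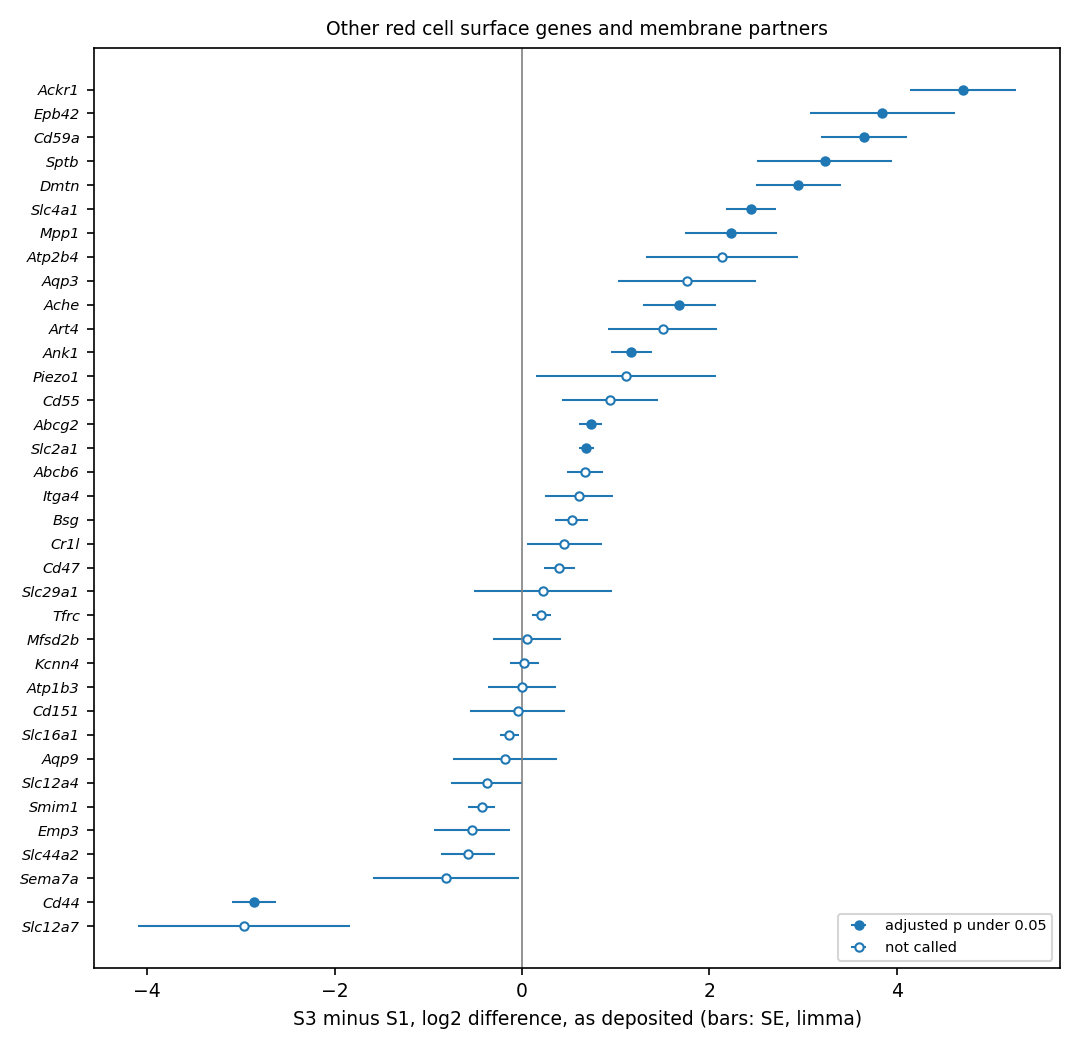
Log2 difference S3 minus S1 (horizontal axis) with SE from limma for the tested genes of the surface and membrane partner lists, each by its brightest probe set; filled points passed an adjusted p of 0.05. Ackr1, Epb42 and Cd59a lie at the top and Cd44 is the only filled point below 0.

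Relatives of the 10 genes from the same protein families were also read. Of 27 listed, 24 had a probe set and 16 were tested, and 3 rose, 3 fell and 10 were not called, where 2.02% of all genes rose and 9.62% fell. Under the class block 5 rose and 4 fell, where 4.99% and 36.3% of all genes did, with 0.92 for Tspo and -3.16 for Aqp11. Tspo, the general translocator protein, rose 1.90-fold (adjusted p = 0.0300, or 0.0816 with median centring), and Btn1a1, a butyrophilin, 7.86-fold (adjusted p = 0.00852), although a dimmer probe set of Btn1a1 changed by -0.10. Aqp8, a water channel, rose 7.65-fold (adjusted p = 0.0372). Aqp11, another channel of the family, fell (log2 change -2.89 ± 0.52, adjusted p = 0.0176), as did Xkr8, an XK relative that scrambles lipids in dying cells (-2.75 ± 0.65, adjusted p = 0.0426). Icam2, an adhesion molecule of vessel and blood cells, fell from 6.20 ± 0.13 to 1.18 ± 1.78 (adjusted p = 0.0150), and 2 of 3 S3 arrays read above background. The Rh relatives Rhbg and Rhcg and the kidney urea transporter Slc14a2 were too dim to be tested. Leaving out 1 array gave 0 to 2 relatives higher and 0 to 2 lower, with 0 higher without S3 replicate 3 and 0 lower without S1 replicate 1 or S1 replicate 2.

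Other cells' markers moved with the subsets in part. The 4 megakaryocyte markers measured had a summed log2 signal of 6.17 to 7.36 in S1 and 8.20 to 8.38 in S3. Over the 6 arrays 0 of 4 were called. By brightest probe set the log2 changes were 1.84 (Pf4), 1.74 ± 0.58 (Gp9), 0.32 (Gp1bb) and -0.31 (Itga2b). With the class block 1, Gp9, was higher (adjusted p = 0.0423), and Gp9 also passed with median centring (adjusted p = 0.0440). The 4 hepatocyte markers summed to 7.77 to 8.10 in S1 and 7.64 to 9.60 in S3. Of these, 0 of 4 were called over the 6 arrays and 1 (Ttr, 1.10, adjusted p = 0.0212) was higher with the class block. Over the 6 arrays their brightest probe sets changed by 1.34 (Alb), 1.22 (Ttr), 0.87 (Afp) and -0.36 (Apoa1). Macrophage markers overlapped, at 4.64 to 6.86 and 5.12 to 6.39, and 2 of 7 read above background on every array. The 2 tested granulocyte-monocyte markers, Mpo and Prtn3, summed to 3.99 to 4.57 in S1 and 1.93 to 3.73 in S3. Prtn3 was called lower (log2 change -2.94, adjusted p = 0.0239), where 9.62% of all genes were. Mpo was not called (-0.58, adjusted p = 0.824). Elane and Ctsg (0.70 and 0.23) did not pass the filter, and 0 of the 4 read above background on every array. Of 3 B lymphoid markers 0 passed the filter. The part of such cells in the changes described was not tested.

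Genes outside the set with the most similar course were sought by Pearson's r over the 6 arrays with the mean standardized profile of the 10 genes' brightest probe sets. The 5 closest of 11949 genes were Ccnb2 (cyclin B2), Serinc3, Cib1, Kntc1 (a kinetochore protein) and Pcmtd2, with r from 0.996 to 0.998. This is a description over 6 arrays that fall into the 2 array classes, a split that enters each correlation. Ccnb2, for one, read 9.27 on the long S1 array and 8.49 on the short S3 array. In all, 304 genes had r above 0.95. Of the 10 genes, Tspo2, Rhd and Xk lay closest to their common profile (r = 0.973, 0.961 and 0.954), and Aqp1 farthest (r = -0.10). Each of the 10 is itself part of that profile, which raises its r.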

How the data were processed

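RNA of the sorted cells was amplified, labelled with biotin and hybridised to Affymetrix mouse arrays, per the labels' protocols. Per the series' design text, the authors took MAS5 signals and scaled each array to the mean of 3 reference transcripts (18S, Gapdh and beta-actin). The deposited values are log2 signals, with the base read from their size, and were used as they are. No MAS5 version was given in the labels.

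Of 45101 probe sets, 64 are controls, 34945 have 1 symbol, 932 several and 9160 none. All 12 probe sets matched RefSeq genes by identifier, with 0 symbols changed. Listed genes with no probe set are not analysed here. Background was the 95th percentile of 27 bacterial control probe sets per array (log2 1.01 to 1.74).

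The subsets, taken from the titles, were compared in limma 3.58.1 under R 4.3.3 (eBayes with an intensity trend, 4 residual and 3.76 prior degrees of freedom, two-sided) over the 27022 probe sets with a mean above the 40th percentile, with Benjamini-Hochberg adjustment. Lists used the brightest tested probe set of a gene. Arrays were split into classes at an actin difference of -1.5. Named were the 10 genes, up to 6 called genes of smallest p per list, genes with probe sets of both signs and the 5 closest profiles. Members, lists, classes and alternatives were chosen with earlier results of these data known. The fits were tested on simulated arrays.

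Deviations of S1 and S3 arrays with the same replicate number correlated at 0.02, 0.39 and 0.41, so that not every pair passed 0.1 and pairing is only an alternative. Arrays of unlike number correlated at -0.55 to 0.39, the highest being S1 replicate 3 with S3 replicate 1, both long arrays.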

Additional observations from a re-analysis of the deposited data

How the results depend on the processing

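Over 19 alternatives no probe set of the 10 genes was called in opposite directions. Rhd was called in 11, Kel in 13, Icam4 in 13, Gypc in 12 and Tspo2 in 5 of them, always higher; the brighter Xk probe set in 5; Aqp1 in 2, always lower; Rhag, Ermap and Slc14a1 in 0. The count of 4 probe sets higher became 7 with quantile normalization, with the class block and with this block plus median centring. It became 0 with no intensity trend (limma; 6 at an unadjusted p under 0.05) and 0 in the short arrays alone (5 unadjusted), a fit that called 0 of all probe sets. Leaving out 1 array gave 0 to 5: 0 without S1 replicate 1, S1 replicate 2 or S3 replicate 1 (4 unadjusted in each), fits in which 128, 137 and 133 of all probe sets were higher in place of 436; 1 without S3 replicate 3 (95 of all), 4 without S3 replicate 2 and 5 without S1 replicate 3. Leaving out S1 replicate 3 leaves S1 with short arrays only, and leaving out S3 replicate 2 leaves S3 with long arrays only. The count of 0 lower became 1 with the class block (Aqp1). In the long arrays alone, where S1 is 1 array, Aqp1 changed by -1.23. For the other surface genes, the 6 higher and 1 lower became 11 higher with quantile normalization and 10 and 5 with the class block. With this block plus median centring they became 15 and 2. Of all probe sets, quantile normalization called 4.06% higher and 5.23% lower, and the class block 4.16% and 28.2%. The block plus median centring called 5.98% and 9.77%. The cause of these shifts was not tested.

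With the replicate block 4 probe sets were higher and 0 lower, for the same genes: Rhd (adjusted p = 0.0325), Kel (0.0257), Icam4 (0.0170) and Gypc (0.0176). Of all probe sets, that fit called 2.35% higher and 8.54% lower. The share of higher calls among all calls was 19.5% as deposited and 39.5% with median centring, which moved the median log2 change of all probe sets from -0.24 to -0.01. The class block brought the calls of all probe sets to 1125 higher and 7618 lower, from 436 and 1801. In the long arrays alone S1 is 1 array, in the short arrays alone S3 is, and each is assumed to vary like the others. All 12 probe sets read above background on every array; the number of arrays limits the precision of each value.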
